A study of Mus musculus with 10 samples.

Results

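Bile acid synthesis and uptake genes were examined in mouse liver. They were 10 genes chosen by symbol, of 19505 genes named on the array, and each had 1 probe set. The enzymes were Cyp7a1, Cyp8b1, Cyp27a1, Cyp7b1 and Baat, the uptake carriers were Slc10a1, Slco1a1, Slco1a4 and Slco1b2, and Nr0b2 encodes a regulator. Liver RNA of 10 male C57BL/6N mice was hybridized to Clariom S Mouse Arrays, 1 mouse to an array. In the iso-α-acids diet group, 5 mice ate AIN-93G with 0.5% (w/w) iso-α-acids, the bitter acids of beer, for 1 week. In the control diet group, 5 mice were pair-fed plain AIN-93G. All mice were bought at an age of 8 weeks, all received acetaldehyde (200 mg/kg, i.p.), and livers were taken 5 h later, so that the comparison is between diets in acetaldehyde-treated mice. The authors picked these 10 mice as typical of their groups by serum enzyme values, which limits how far the arrays stand for whole groups.

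Bile acids are made from cholesterol in hepatocytes. The classical pathway starts with Cyp7a1, its rate-limiting enzyme, while the alternative pathway runs through Cyp27a1 and Cyp7b1, and the finished acids are coupled to taurine or glycine before they are pumped into bile. Most bile acids return from the intestine in portal blood and are taken up again by sodium-dependent and sodium-independent carriers of the hepatocyte, and the receptor FXR, through Nr0b2 in the liver, holds back their synthesis.

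Each level below is the deposited value, read as log2, and each difference is the iso-α-acids diet mean minus the control diet mean on that scale. The whole table ran from 4.94 to 13.37. Values almost constant over the 10 arrays (SD under 0.001) made up 19767 of 22206 probe sets (89.0%). These are called flat, and for them the table can show neither a difference nor its absence. The hepatocyte markers Alb and Ttr were flat at 13.23 and 13.10, near the top of the table, and the biliary markers Krt19, Krt7 and Epcam were flat at 6.04, 6.48 and 5.95. In bulk tissue, fewer cells of a type and less RNA per cell cannot be told apart. Iso-α-acids diet replicate 1 stood apart from the other livers, as it was the highest or lowest of the 10 arrays in 1522 of 2439 varying probe sets (62.4%). Results that rest on this mouse are given with and without it.

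Of the 10 genes, 9 varied and Baat was flat. Slco1a4, a sodium-independent carrier, was higher in all 5 iso-α-acids livers than in any control liver. Cyp7b1, the oxysterol hydroxylase of the alternative pathway, was lower in all 5 iso-α-acids livers than in any control liver. Slco1a1, the genomic neighbour of Slco1a4, was far lower in 1 iso-α-acids mouse. The other 6 varying genes overlapped between diets. In limma over all probe sets (Benjamini-Hochberg adjusted p under 0.05), 0 of the 10 genes were called higher and 0 lower, where 0.590% of all probe sets were called higher and 0.171% lower (5.13% and 1.07% of the varying ones). At an unadjusted p under 0.05, 1 gene was higher (Slco1a4) and 1 lower (Cyp7b1), where 4.81% of all probe sets were higher and 5.02% lower (22.6% and 14.6% of the varying ones). Without iso-α-acids diet replicate 1, Slco1a4 was called higher and Cyp7b1 lower, beside 1.57% and 0.662% of all probe sets (13.0% and 4.26% of the varying ones). They were also the 2 genes called when limma was run on varying probe sets alone, which called 13.4% higher and 6.89% lower. Of the varying probe sets, 12.1% were higher without overlap and 7.30% lower without overlap, so 1 gene of 9 in each direction was near the share of varying probe sets in general. Rank products, which the methods name for finding differential expression, called 3 of the 9 genes upregulated (Cyp7a1, Cyp8b1 and Slco1a4) and 3 downregulated (Cyp7b1, Slco1a1 and Slco1b2) at an FDR under 0.05. It called 3.72% of all probe sets upregulated and 3.19% downregulated, and 33.5% and 28.4% of the varying ones, about the same shares as among the 9 genes. The median difference of the 9 varying genes was 0.06, beside 0.01 over all varying probe sets.

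**Figure D1:**
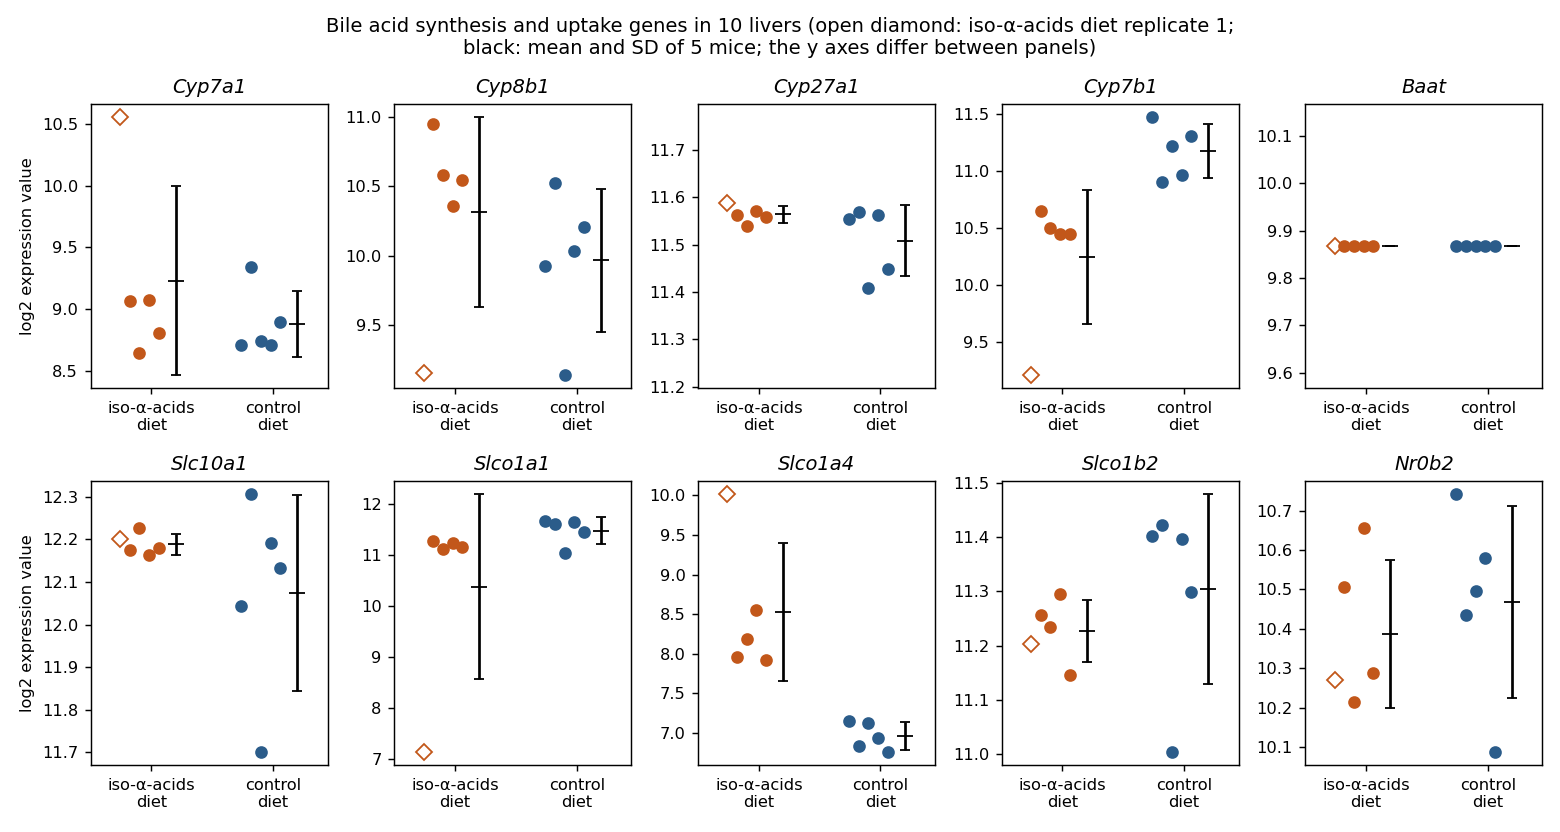
Log2 expression value of each of the 10 genes in each liver, with the iso-α-acids diet group (orange) left of the control diet group (blue), and the mean and SD of 5 mice in black. The open diamond is iso-α-acids diet replicate 1, which lies at 7.13 for Slco1a1 and 10.02 for Slco1a4, and the y axes differ between genes.

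The carriers Slco1b2, Slco1a4 and Slco1a1 lie in this order by start on chromosome 6 in the mouse assembly GRCm38.p6, with 1 other protein-coding gene, Gm5724, between Slco1b2 and Slco1a4. The 250 bases upstream of each start, from RefSeq, are printed because these neighbours stood at different positions between the diets. Slco1a4 was higher, Slco1a1 was lower on average and Slco1b2 was nearly level. Capitals mark matches, on either strand, to the letters searched.
Slco1a4, chr6:141856221-141856470, minus strand: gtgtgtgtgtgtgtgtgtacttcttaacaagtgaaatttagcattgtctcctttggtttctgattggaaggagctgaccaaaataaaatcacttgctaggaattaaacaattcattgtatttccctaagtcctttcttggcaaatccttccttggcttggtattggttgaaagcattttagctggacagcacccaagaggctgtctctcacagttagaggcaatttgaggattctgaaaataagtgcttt
Slco1a1, chr6:141946963-141947212, minus strand: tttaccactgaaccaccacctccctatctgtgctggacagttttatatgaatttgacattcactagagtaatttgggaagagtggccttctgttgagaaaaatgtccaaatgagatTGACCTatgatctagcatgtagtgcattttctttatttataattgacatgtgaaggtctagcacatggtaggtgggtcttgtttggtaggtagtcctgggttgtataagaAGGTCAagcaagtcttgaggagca
Slco1b2, chr6:141629268-141629517, plus strand: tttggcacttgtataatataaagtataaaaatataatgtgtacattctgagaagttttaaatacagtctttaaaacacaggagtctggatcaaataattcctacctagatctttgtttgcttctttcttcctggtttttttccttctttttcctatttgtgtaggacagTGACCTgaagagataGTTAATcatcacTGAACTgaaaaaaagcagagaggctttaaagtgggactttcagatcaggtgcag
The letters searched were the nuclear receptor hexamers AGTTCA and AGGTCA, a direct and an inverted repeat of AGGTCA with 1 base between its copies (both overlap the single hexamer), the Nr5a2-type core TCAAGG, the antioxidant-response-type core TGACNNNGC and the Hnf1-type core GTTAAT. The Slco1a4 window held 0 matches. The Slco1a1 window held 2 matches to AGGTCA, starting 134 bases (opposite strand) and 24 bases before the start. The Slco1b2 window held AGGTCA 81 bases, GTTAAT 66 bases and AGTTCA 54 bases before the start. Among 32851 RefSeq promoter windows of this length, 14.0% held AGGTCA, 11.8% AGTTCA, 12.5% TCAAGG, 10.2% TGACNNNGC and 6.43% GTTAAT, while the direct repeat was in 0.0335% and the inverted repeat in 0.00609%. Windows were found for 7 of the 10 genes. The Nr0b2 window held TCAAGG 68 and 35 bases before the start. A match to such short letters is a description of the window only.

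Cyp7a1, the rate-limiting enzyme of the classical pathway, had 10.56, 9.07, 8.64, 9.07 and 8.81 in iso-α-acids diet replicates 1 to 5, and 8.71, 9.34, 8.75, 8.71 and 8.90 in control diet replicates 1 to 5. Only iso-α-acids diet replicate 1 stood above all control livers, and the lowest of all livers was also an iso-α-acids liver. The means were 9.23 ± 0.76 and 8.88 ± 0.27 for the iso-α-acids and control diets (SD, n = 5 each), a difference of 0.35 (SE 0.35, 95% interval -0.46 to 1.16, limma adjusted p = 0.842, exact permutation p = 0.452, two-sided). Replicate 1 of the iso-α-acids diet alone was 3.20-fold above the control mean. Without it the difference was 0.02 (SE 0.16, limma adjusted p = 0.985). The rank products call (FDR 0.0431) was thus made on values in which 4 of 5 iso-α-acids livers lay within or below the control range. It was lost when rank products was run over varying probe sets only (FDR 0.660).

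Cyp8b1, the sterol hydroxylase that directs synthesis to cholic acid, had 9.15, 10.95, 10.58, 10.36 and 10.54 in iso-α-acids diet replicates 1 to 5, and 9.92, 10.53, 9.14, 10.03 and 10.21 in control diet replicates 1 to 5. Replicates 2, 3 and 5 of the iso-α-acids diet lay above every control liver, while replicate 1 lay next to the lowest control liver, replicate 3. The means were 10.32 ± 0.69 on the iso-α-acids diet and 9.96 ± 0.52 on the control diet, and the difference of 0.35 (SE 0.38) was smaller than its error (limma adjusted p = 0.854, exact permutation p = 0.381). Without iso-α-acids diet replicate 1 the difference was 0.64 (SE 0.28, 95% interval -0.0037 to 1.29, limma adjusted p = 0.406). Without control diet replicate 3 it was 0.14. Rank products called Cyp8b1 upregulated (FDR 0.00219), but not when run over varying probe sets only (FDR 0.271). Cyp7a1 and Cyp8b1 therefore had the same mean difference from livers that differed, since iso-α-acids diet replicate 1 was the highest liver for Cyp7a1 and the second lowest for Cyp8b1.

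Cyp27a1, the mitochondrial enzyme that opens the alternative pathway, had 11.59, 11.56, 11.54, 11.57 and 11.56 in iso-α-acids diet replicates 1 to 5, and 11.55, 11.57, 11.41, 11.56 and 11.45 in control diet replicates 1 to 5. The groups overlapped, and the spread lay mainly in control diet replicates 3 and 5. The difference was 0.06 (SE 0.034, 95% interval -0.02 to 0.13, limma adjusted p = 0.672, exact permutation p = 0.190).

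Cyp7b1 acts after Cyp27a1 in the alternative pathway and also clears oxysterols, and in mouse liver it is known for higher levels in males. It had 9.21, 10.65, 10.50, 10.45 and 10.44 in iso-α-acids diet replicates 1 to 5, and 11.48, 10.90, 11.22, 10.96 and 11.31 in control diet replicates 1 to 5. The groups did not overlap, and replicate 1 was again the liver farthest from the control group. The means were 10.25 ± 0.59 on the iso-α-acids diet and 11.17 ± 0.24 on the control diet (SD, n = 5 each), a difference of -0.93 (SE 0.28, 95% interval -1.56 to -0.29), or 0.527 times the control level. The exact permutation p was 0.00794, the smallest that 5 against 5 mice can give, while the limma adjusted p was 0.267. Leaving out iso-α-acids diet replicate 1 made the difference smaller and its error smaller still, at -0.67 (SE 0.13), and the limma adjusted p was then 0.0454. With control diet replicate 3 left out as well, the difference was -0.65 and the call was lost (limma adjusted p = 0.0976). Rank products called it downregulated (FDR 3.40e-06).

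Baat, which couples bile acids to taurine or glycine, stood at 9.87 on all 10 arrays with an SD of 1.05e-05. The smallest SD among the other genes was that of Cyp27a1 (0.0588).

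Slc10a1 encodes NTCP, the sodium-dependent carrier that takes up most conjugated bile acids from blood. It had 12.20, 12.17, 12.23, 12.16 and 12.18 in iso-α-acids diet replicates 1 to 5, and 12.04, 12.31, 11.70, 12.19 and 12.13 in control diet replicates 1 to 5. All iso-α-acids livers lay within the control range. The SD was 0.0247 on the iso-α-acids diet and 0.231 on the control diet, and control diet replicate 3 was the lowest liver. The difference was 0.11 (SE 0.10, 95% interval -0.12 to 0.35, limma adjusted p = 0.812, exact permutation p = 0.341), and it was 0.02 without control diet replicate 3.

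Slco1a1 encodes a sodium-independent organic anion carrier of the mouse hepatocyte, known for higher levels in males. It had 7.13, 11.27, 11.11, 11.23 and 11.15 in iso-α-acids diet replicates 1 to 5, and 11.66, 11.60, 11.03, 11.65 and 11.45 in control diet replicates 1 to 5. Replicate 1 of the iso-α-acids diet was 20.4-fold below the control mean, whereas replicates 2 to 5 lay close together (SD 0.0754), above control diet replicate 3 and below the other 4 control livers. The means were 10.38 ± 1.82 on the iso-α-acids diet and 11.48 ± 0.26 on the control diet, a difference of -1.10 (SE 0.80, 95% interval -2.94 to 0.74, limma adjusted p = 0.746, exact permutation p = 0.0476). Without iso-α-acids diet replicate 1 the difference was -0.29 (SE 0.13, limma adjusted p = 0.456). With control diet replicate 3 left out as well, it was -0.40 (limma adjusted p = 0.0317). Rank products called Slco1a1 downregulated (FDR 5.24e-05).

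Slco1a4 encodes a related carrier that also takes up drugs and is known in mice as a target of the xenobiotic receptor Nr1i2. It had 10.02, 7.96, 8.19, 8.55 and 7.92 in iso-α-acids diet replicates 1 to 5, and 7.15, 6.83, 7.13, 6.94 and 6.76 in control diet replicates 1 to 5. The groups did not overlap, and replicate 1 was the highest liver. The means were 8.53 ± 0.87 on the iso-α-acids diet and 6.96 ± 0.18 on the control diet (SD, n = 5 each), a difference of 1.56 (SE 0.39, 95% interval 0.67 to 2.45), or 2.95-fold. The exact permutation p was 0.00794 and the limma adjusted p was 0.168. Without iso-α-acids diet replicate 1, Slco1a4 was still 2.28-fold higher, with a difference of 1.19 (SE 0.15) and a limma adjusted p of 0.0107. Rank products called it upregulated (FDR 6.60e-07).

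Slco1b2, the main liver-specific carrier of this family in mice, had 11.20, 11.26, 11.23, 11.30 and 11.15 in iso-α-acids diet replicates 1 to 5, and 11.40, 11.42, 11.00, 11.40 and 11.30 in control diet replicates 1 to 5. Control diet replicate 3 was the lowest liver and the other 4 control livers stood above the highest iso-α-acids liver, replicate 5 only just. The difference was -0.08 (SE 0.081, 95% interval -0.26 to 0.11, limma adjusted p = 0.849, exact permutation p = 0.381), and it was -0.15 without control diet replicate 3 (limma adjusted p = 0.205). Rank products called Slco1b2 downregulated (FDR 0.0329), but not when run over varying probe sets only (FDR 0.884).

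Nr0b2 encodes SHP, a nuclear receptor without a DNA-binding domain that represses Cyp7a1 and Cyp8b1. It had 10.27, 10.51, 10.21, 10.66 and 10.29 in iso-α-acids diet replicates 1 to 5, and 10.74, 10.44, 10.50, 10.58 and 10.09 in control diet replicates 1 to 5. All iso-α-acids livers lay within the control range, and the difference was -0.08 (SE 0.13, 95% interval -0.39 to 0.23, limma adjusted p = 0.916, exact permutation p = 0.548).

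**Figure D2:**
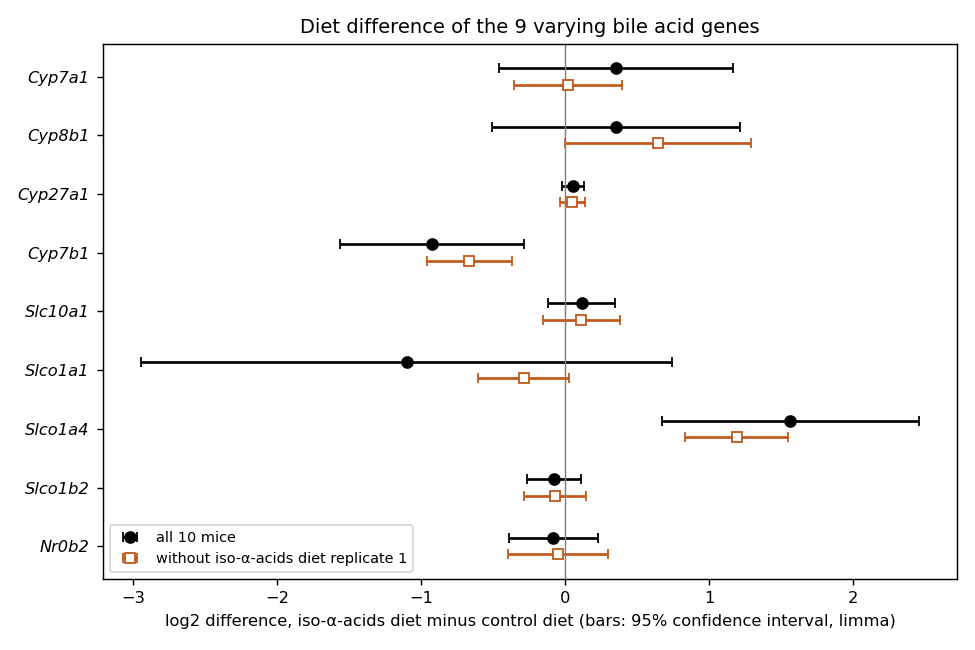
Difference of means, iso-α-acids diet minus control diet (log2), with its 95% confidence interval from limma, for each of the 9 varying genes, over all 10 mice (black circles) and without iso-α-acids diet replicate 1 (open orange squares). The intervals of Slco1a4 and Cyp7b1 leave out 0 in both fits, and that of Slco1a1 is far wider with the mouse than without it.

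Mouse by mouse, iso-α-acids diet replicate 1 was the highest of 10 livers for Cyp7a1, Cyp27a1 and Slco1a4 and the lowest for Cyp7b1 and Slco1a1, 5 of the 9 varying genes. It was the highest or lowest in 62.4% of all varying probe sets, so this count is not particular to these genes. For Cyp8b1 it was 0.81 below the control mean, while the mean of the other 4 livers was 0.64 above it. Its distance from the control mean was 3.05 for Slco1a4, against 1.19 for the mean of replicates 2 to 5. For Slco1a1 it was -4.35 against -0.29, and for Cyp7b1 -1.97 against -0.67. Control diet replicate 3 was the lowest of the 10 livers for Cyp8b1, Cyp27a1, Slc10a1 and Slco1b2, 4 of the 9 genes, and it was the highest or lowest in 26.7% of all varying probe sets.

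**Figure D3:**
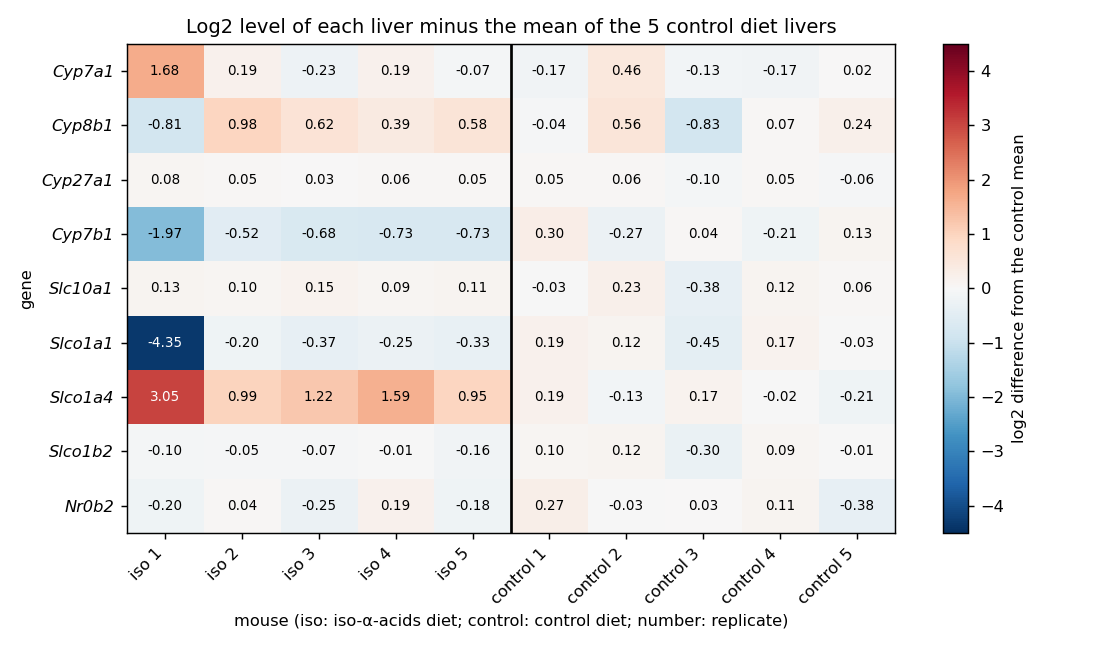
Log2 value of each liver minus the mean of the 5 control diet livers for the 9 varying genes, with the iso-α-acids diet livers left of the line and the control diet livers right of it. Replicate 1 of the iso-α-acids diet reaches -4.35 for Slco1a1 and 3.05 for Slco1a4. The other 4 livers have the same sign as replicate 1 for Cyp27a1, Cyp7b1, Slc10a1, Slco1a1, Slco1a4 and Slco1b2. Of these genes, only Slco1a4 and Cyp7b1 do not overlap between the diets.

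**Figure D4:**
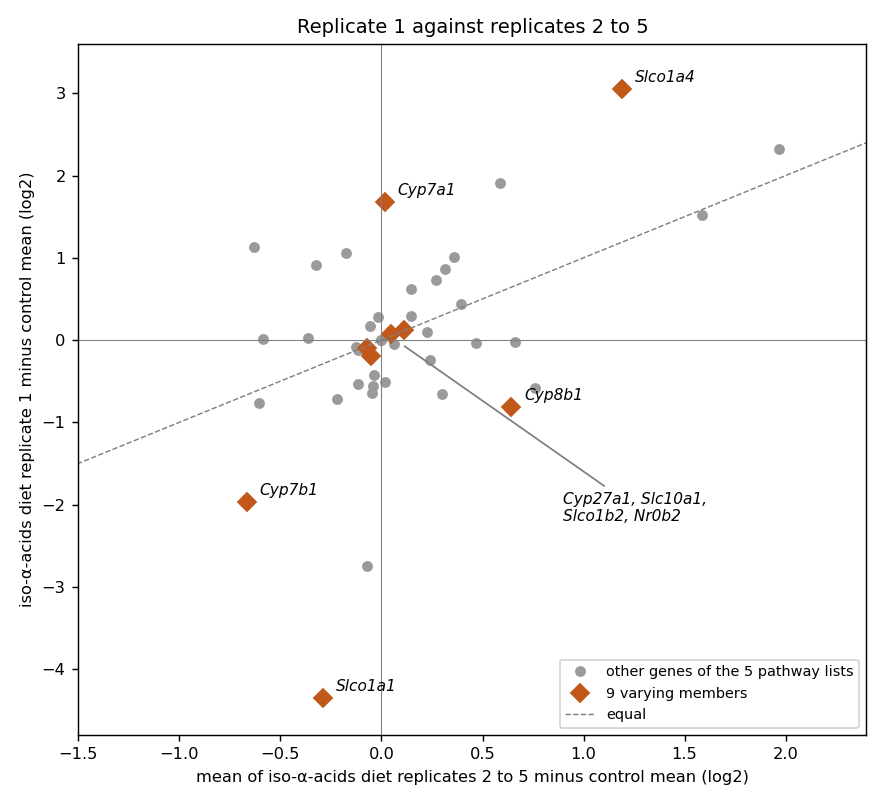
Distance of iso-α-acids diet replicate 1 from the control mean (y axis, log2) against that of the mean of replicates 2 to 5 (x axis, log2) for the 9 varying genes (orange diamonds) and for other varying genes of bile acid handling (grey points), with a dashed line where both are equal. Both axes share the control mean, and Cyp8b1 is the only orange point with opposite signs.

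Acute phase genes, which hepatocytes induce in inflammation, and metal response genes also differed between single mice. Over the 15 varying genes of this list of 18, the mean distance from the control mean was 1.10 in iso-α-acids diet replicate 1. It was between -0.63 and -0.35 in replicates 2 to 5, and between -0.43 and 0.67 in the control livers, where replicate 3 was the highest. In iso-α-acids diet replicate 1, the distance was largest for the metallothioneins Mt2 (4.42) and Mt1 (4.02), then Orm3 (3.01) and Lcn2 (2.85). For Saa1, Saa2, Saa3 and Saa4 it was negative (-0.20, -0.36, -0.22 and -0.21), and for the others it was 0.12 to 1.37. The log2 of the summed level ranged from 15.02 to 15.98 on the iso-α-acids diet and from 15.15 to 15.66 on the control diet, and 0 of the 18 genes passed limma, while 1 (Saa4) was lower at an unadjusted p under 0.05 (5.02% of all probe sets). Saa4, a constitutive serum amyloid A, was lower without overlap, with a difference of -0.51 (limma adjusted p = 0.0840). Without iso-α-acids diet replicate 1, limma called it lower (-0.58, adjusted p = 0.0129). Of the varying probe sets, 7.30% were lower without overlap, and 4.26% were called lower without that mouse. By rank products, 3 genes of the list were upregulated and 11 downregulated (3.72% and 3.19% of all probe sets, and 33.5% and 28.4% of the varying ones). Lcn2, an iron-sequestering acute phase protein, had 12.12, 8.70, 8.74, 7.83 and 8.46 in iso-α-acids diet replicates 1 to 5, and 8.15, 8.45, 10.89, 8.33 and 10.55 in control diet replicates 1 to 5. Mt1, a metallothionein, had its highest value, 12.84, in iso-α-acids diet replicate 1 and its second highest, 10.08, in control diet replicate 3. In each diet group, the liver that was most often the highest or lowest for the bile acid genes was thus also the highest for Lcn2 and Mt1. These livers were also the most often extreme of their groups over all varying probe sets (62.4% and 26.7%). Saa1 was highest in the same livers, but its 9.22 in iso-α-acids diet replicate 1 lay below the control mean of 9.42. For Orm2, the highest control liver was replicate 5 (9.27), just above replicate 3 (9.24). The part of the acute phase response in the values of the bile acid genes was not tested.

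Kupffer cells are the resident macrophages of liver. All 4 varying markers of 6 on the array (Adgre1, Clec4f, Vsig4 and Csf1r) were lower in the iso-α-acids diet group without overlap, with differences of -0.32 to -0.66, and 0 passed limma, with or without iso-α-acids diet replicate 1. All 4 had an unadjusted p under 0.05 and all 4 were downregulated by rank products. Of the varying probe sets in general, 7.30% were lower without overlap, 14.6% lower at an unadjusted p under 0.05 and 28.4% downregulated by rank products. Their log2 summed level ranged from 9.79 to 10.17 on the iso-α-acids diet and from 10.32 to 10.82 on the control diet. The 3 varying hepatocyte markers of 7 on the array summed to 14.08 to 14.26 on the iso-α-acids diet and 14.19 to 14.26 on the control diet. Of the cholangiocyte markers, 1 of 5 varied (Sox9, difference 0.06). Of the sinusoidal endothelial markers 2 of 6 varied, of the stellate cell markers 1 of 6 and of the blood cell markers 1 of 5. Limma called 0 genes of these 4 lists or of the hepatocyte list. Without iso-α-acids diet replicate 1, it called the hepatocyte marker Cps1 lower (-0.20, adjusted p = 0.0467), beside 4.26% of the varying probe sets. With all mice, 1 flat endothelial marker was lower at an unadjusted p under 0.05. Alas2, the heme synthesis enzyme of red cell precursors, was lower without overlap, at 7.45 to 9.41 on the iso-α-acids diet and 9.47 to 9.85 on the control diet (limma adjusted p = 0.639), and its lowest liver was iso-α-acids diet replicate 1. The part of these cells in the results was not tested.

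Other genes of bile acid handling were counted in 5 lists. Of 15 other synthesis enzymes, 11 varied, and limma called 0 higher and 0 lower, with 5 higher and 1 lower at an unadjusted p under 0.05 (4.81% and 5.02% of all probe sets, and 22.6% and 14.6% of the varying ones). These counts, and those of the lists below, include flat genes. By rank products, 5 were upregulated and 5 downregulated (3.72% and 3.19% of all probe sets, and 33.5% and 28.4% of the varying ones). The median difference of the varying ones was -0.11. Acox2, the peroxisomal oxidase of side chain shortening, was higher without overlap, with 10.93 ± 0.21 on the iso-α-acids diet and 10.56 ± 0.07 on the control diet (limma adjusted p = 0.205). Hsd17b4, the peroxisomal enzyme of the next steps, had 10.74 in iso-α-acids diet replicate 1 and 11.23 to 11.26 in the other 4, against 10.60 to 10.86 on the control diet (limma adjusted p = 0.253). Cyp2c70, which makes the muricholic acids of mice, had 11.58 in iso-α-acids diet replicate 1 and 10.94 to 11.00 in the other 4, against 11.46 to 11.70 on the control diet (limma adjusted p = 0.208). For Hsd17b4 and Cyp2c70, replicate 1 thus lay within the control range and the other 4 livers outside it. Without replicate 1, limma called Acox2 (0.27, adjusted p = 0.0151) and Hsd17b4 (0.47, adjusted p = 0.00515) higher and Cyp2c70 lower (-0.59, adjusted p = 0.00158). The flat gene Acot8 was called higher as well, by less than 0.001. That fit called 1.57% of all probe sets higher and 0.662% lower (13.0% and 4.26% of the varying ones). Cyp39a1, an oxysterol hydroxylase, had 10.05 in iso-α-acids diet replicate 1, above all control livers, and 8.18 to 8.46 in the other 4, below all of them.

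Among 11 genes of export into bile or blood, 9 varied, and limma called 2 higher and 0 lower. It called 0.590% of all probe sets higher and 0.171% lower (5.13% and 1.07% of the varying ones). At an unadjusted p under 0.05, 3 were higher and 2 lower (4.81% and 5.02% of all probe sets, and 22.6% and 14.6% of the varying ones). Abcc3, a carrier of the blood-facing membrane, rose by 2.04 (4.11-fold, limma adjusted p = 0.00353), and Abcc2, the canalicular carrier of conjugates, rose by 0.40 (SE 0.048, limma adjusted p = 0.00950). Both groups were apart in every liver for these genes. Abcb11, the canalicular bile salt pump, had 10.74 ± 0.04 on the iso-α-acids diet and 10.86 ± 0.07 on the control diet (difference -0.12, limma adjusted p = 0.312). Without iso-α-acids diet replicate 1, Abcc4 was also called higher (0.15, adjusted p = 0.0121), and Atp8b1, a canalicular lipid flippase, was called lower (-0.37, adjusted p = 0.0109). That fit called 13.0% of the varying probe sets higher and 4.26% lower. Rank products called 5 of the list upregulated and 3 downregulated (3.72% and 3.19% of all probe sets, and 33.5% and 28.4% of the varying ones).

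Of 15 other Slco and Slc10 carriers, 3 varied, and limma called 0 in either direction. Before adjustment, 1 (Slc10a5) was lower at a p under 0.05, beside 5.02% of all probe sets and 14.6% of the varying ones. All 3 varying carriers were downregulated by rank products (3.19% of all probe sets and 28.4% of the varying ones). Slco1a5 and Slco1a6, further genes of the Slco1a group, were flat at 5.15 and 5.19. Slc10a5, a liver-expressed relative of Slc10a1, was lower without overlap, at 9.10 ± 0.24 on the iso-α-acids diet and 9.42 ± 0.06 on the control diet (limma adjusted p = 0.344). Slc10a2, known as the ileal bile acid carrier, was also lower without overlap, at 6.60 to 6.89 on the iso-α-acids diet and 6.93 to 8.52 on the control diet (limma adjusted p = 0.538), and its highest liver was control diet replicate 3. Of 5 ileal markers, 2 varied (Slc10a2 and Fabp2) and limma called 0, with 0 at an unadjusted p under 0.05, while Fgf15 and Fabp6 were flat at 6.39 and 5.35.

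Receptors and regulators of the pathway were 15 genes on the array, of which 9 varied. Limma called 0 of them, and before adjustment 2 higher and 1 lower had a p under 0.05. Of all probe sets, 4.81% were higher and 5.02% lower at this limit (22.6% and 14.6% of the varying ones). The gene counted as lower was Nr1h3, which was almost flat, with a difference of -0.0021 and an SD of 0.0016 over the 10 arrays. By rank products, 3 were upregulated and 1 was downregulated (3.72% and 3.19% of all probe sets, and 33.5% and 28.4% of the varying ones). Nr1h4, which encodes FXR, and Fgfr4, the receptor of the intestinal signal Fgf15, were flat at 9.75 and 8.29. Nr1i3, the xenobiotic receptor CAR, had 11.25, 9.94, 9.87, 10.04 and 9.88 in iso-α-acids diet replicates 1 to 5, and 9.40, 9.30, 9.02, 9.72 and 9.28 in control diet replicates 1 to 5. These values did not overlap, with a difference of 0.85 (SE 0.28, limma adjusted p = 0.330) and of 0.59 without replicate 1 (adjusted p = 0.0818). Nr1i2, the xenobiotic receptor PXR, had 8.40 ± 0.22 on the iso-α-acids diet and 8.16 ± 0.11 on the control diet (limma adjusted p = 0.529). Klb, the co-receptor of Fgfr4, had 8.97 ± 0.30 and 8.48 ± 0.29 on the iso-α-acids and control diets (limma adjusted p = 0.401). Nr5a2 and Hnf4a, activators of Cyp7a1 and Cyp8b1, differed by -0.01 and 0.04 (limma adjusted p = 0.979 and 0.912).

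In the list of bile acid hydroxylation and sulfation, 5 genes were on the array and 3 varied. Cyp3a11, a drug-metabolizing P450 that also hydroxylates bile acids, rose by 1.57 (SE 0.044, 2.97-fold, limma adjusted p = 1.08e-06), with 12.38 to 12.54 on the iso-α-acids diet and 10.82 to 10.98 on the control diet. It was the only gene of this list that limma called, beside 0.590% of all probe sets called higher (5.13% of the varying ones). For this gene, iso-α-acids diet replicate 1 (12.43) lay within the range of its group. Sult2a8, a bile acid sulfotransferase of mouse liver, had 9.20 in iso-α-acids diet replicate 1 and 11.75 to 11.95 in the other 4, against 11.75 to 12.07 on the control diet (limma adjusted p = 0.806). This liver was the lowest of all for Sult2a8, as it was for Slco1a1. Without it, the difference was -0.07 for Sult2a8 (limma adjusted p = 0.831) and -0.29 for Slco1a1 (limma adjusted p = 0.456). Papss2, which makes the sulfate donor, had 11.10 ± 0.32 on the iso-α-acids diet and 10.58 ± 0.27 on the control diet (limma adjusted p = 0.361).

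**Figure D5:**
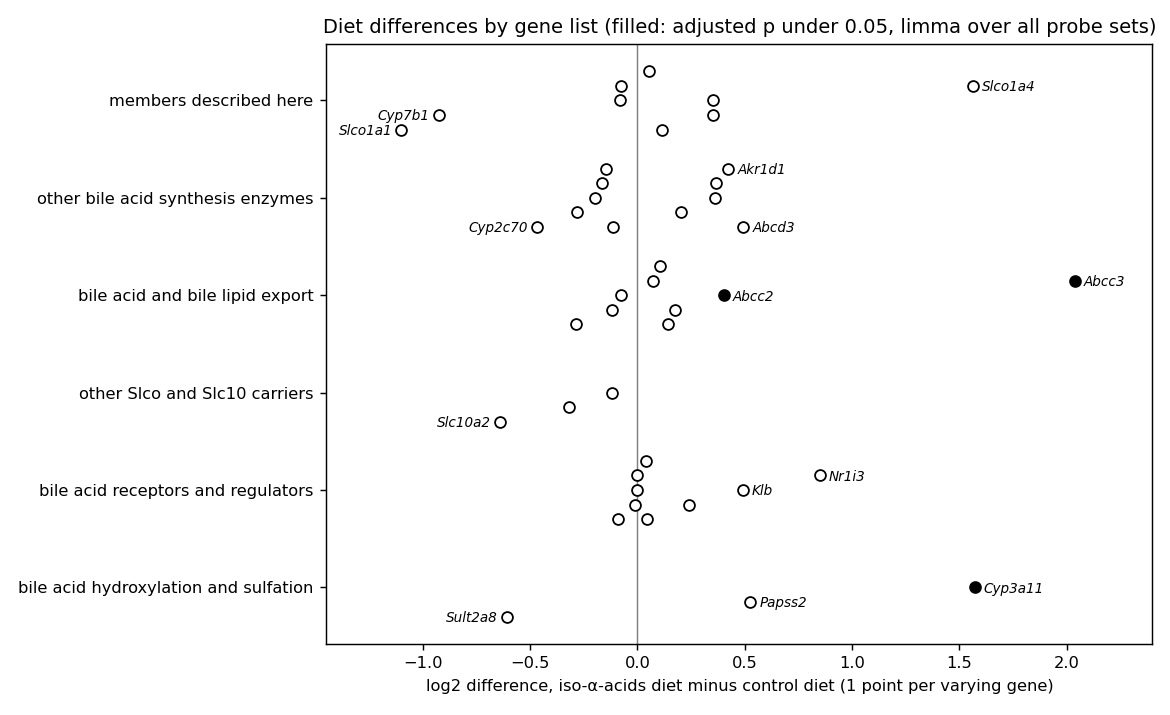
Difference of means, iso-α-acids diet minus control diet (log2), 1 point per varying gene, for the 10 genes described here and 5 lists of other bile acid genes. Filled points passed limma over all probe sets (adjusted p under 0.05) and are Abcc2, Abcc3 and Cyp3a11; Slco1a4 lies at 1.56 and did not pass.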

How the data were processed

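Each of 10 mice had 1 Clariom S Mouse Array of its liver RNA. The authors quantile normalized the CEL files and summarized them to probe sets by qFARMS (R, Bioconductor), and the deposited values were read as log2, although neither the log base, the versions, the probe definition nor the settings are given in the sources used here. No further normalization was applied. Of 22206 probe sets, 19572 carried 1 symbol, 0 several and 2634 none; all 19572 Entrez identifiers matched RefSeq (GRCm38.p6) and 0 symbols differed.

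The diets were compared with limma 3.58.1 in R 4.3.3 (lmFit, then eBayes without trend; 0.348 prior degrees of freedom; two-sided, Benjamini-Hochberg over all probe sets, threshold 0.05). Beside it stand the exact permutation test over all 252 labelings (two-sided, smallest p 0.00794) and rank products, the median over 120 pairings with gamma p-values and an FDR in each direction. The fits were tested on simulated data with independent normal noise. No simulated mouse stood apart from the others, so that test does not cover this feature of the data. The 10 genes and the 14 lists (136 genes) were chosen with earlier results of these data known. Named genes were all 10 members; of other lists, genes that passed limma without overlap, and any varying synthesis enzyme, receptor or regulator; and fixed acute phase and hepatocyte markers. Other genes named, among them Abcb11, Abcc4, Atp8b1, Slc10a2, Slc10a5, Slco1a5, Slco1a6, Sult2a8, Papss2, Saa4, Cps1, Alas2 and the Kupffer cell and ileal markers, were chosen after their values were seen. Mt2, Orm3, Saa2 and Saa3 were also chosen in this way. So were the 2 alternatives that combine leaving out iso-α-acids diet replicate 1 with varying probe sets only or with leaving out control diet replicate 3. Serum, enzyme, RT-PCR and cell line data were not analysed here.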

Additional observations from a re-analysis of the deposited data

Results flagged for a closer look

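Within each diet group, the highest and the lowest of the 5 livers were checked for a gap to the nearest other liver that took up an unusually large share of the group's range (Dixon's test, critical value 0.71). Of 18 groups checked, 9 genes on 2 diets, 3 had such a liver, and in all 3 it was iso-α-acids diet replicate 1. By chance, the test nominally flags about 5% of groups. The share it would flag among all varying probe sets was not tested. This mouse was the highest or lowest of all livers in 62.4% of all varying probe sets. The 3 flags therefore cannot show an excess particular to these genes.

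For Cyp7a1, this mouse was the highest of its group at 10.56, with the nearest other liver at 9.07 and a gap of 0.777 of the range. For Cyp7b1, it was the lowest at 9.21, with the nearest other liver at 10.44 and a gap of 0.855 of the range. For Slco1a1, it was the lowest at 7.13, with the nearest other liver at 11.11 and a gap of 0.960 of the range. The 3 flags come from 1 array and are not independent of one another. This array also had the highest value of 10 for Lcn2 (12.12) and Mt1 (12.84). The part of either in the 3 values was not tested.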

How the results depend on the processing

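With all mice, limma called 131 probe sets higher and 38 lower, and 0 and 0 of the 10 genes. Leaving out each mouse in turn gave 65 to 349 higher and 6 to 147 lower over all probe sets, and 0 to 1 higher and 0 to 1 lower among the 10 genes, where only leaving out iso-α-acids diet replicate 1 gave the calls of Slco1a4 and Cyp7b1. Without that mouse, the counts over all probe sets were 349 and 147. Limma over varying probe sets only gave 327 and 168 over all and 1 and 1 among the 10 genes (Slco1a4, adjusted p = 0.0192, and Cyp7b1, adjusted p = 0.0389), for which fewer probe sets entered the adjustment. With iso-α-acids diet replicate 1 left out as well, it gave 648 and 347, and 1 and 1. With iso-α-acids diet replicate 1 and control diet replicate 3 both left out, the counts were 313 and 110, and 1 and 1 (Slco1a4 and Slco1a1), and the difference of Cyp7a1 turned to -0.016, the only reversal. Rank products gave 826 and 708, and 3 and 3 of the 10 genes. Over varying probe sets it gave 75 lower, and 1 higher (Slco1a4) and 2 lower (Cyp7b1 and Slco1a1) of the 10 genes. Cyp7a1, Cyp8b1 and Slco1b2 were not called there. A second quantile normalization gave 71 lower, trend with robust fitting 23 lower, a threshold of 0.01 gave 51 higher and 3 lower, and a minimum log2 difference of 0.5 gave 60 and 6. Where neither fewer probe sets nor fewer mice entered, the cause was not tested. Of 234 values of single genes under 26 alternatives, 216 kept their direction and side of the threshold, 17 kept their direction and passed it, and 1 was reversed. Alternatives that used the same values and unweighted means of all 10 mice kept the same mean differences, so they could not reverse a direction. The stricter thresholds could not add a call, as 0 of the 10 genes passed the main one. The count of 216 was thus partly fixed in advance.

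The titles number the mice 1 to 5 in both groups. The values showed no sign that the numbers pair the mice. Deviations of same-numbered mice correlated at -0.21 to 0.23, and only 1 of 5 mice of the iso-α-acids diet correlated best with its own number. So few correlations cannot exclude a pairing. With the replicate number as a block, limma called 21 higher and 1 lower, and 0 of the 10 genes. The methods name no t-test for the arrays; an equal-variance t-test also called 0 of the 10 genes after adjustment.

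The number of arrays limits the precision, and flat probe sets such as that of Baat carry no information on the diet. The mice were chosen on serum enzyme values.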
